A study of Mus musculus with 10 samples.

Results

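The 10 genes described here are markers of the pyramidal cells of hippocampal fields CA1, CA2 and CA3, measured in the hippocampus of mice with an additional copy of Dyrk1a. They were taken by symbol from the platform annotation: Wfs1, Fibcd1 and Pou3f1 for CA1, Rgs14, Pcp4, Amigo2 and Cacng5 for CA2, and Iyd, Bok and Nnat for CA3. They are 10 of 19938 genes with a measured transcript cluster, the unit into which the array combines the probes of a gene, and each had 1 transcript cluster. The rule uses their names and no expression value, but the genes were picked when earlier results of these data were known. The series compared 5 male Tg(Dyrk1a) mice with 5 male control littermates of wild type, each 16 weeks old, and 1 Affymetrix array was made for each mouse from both hippocampi together. Tg(Dyrk1a) mice carry a bacterial artificial chromosome with Dyrk1a, so the added copy is present in every cell type and not in pyramidal cells alone. Both groups shared a C57BL/6N background per the labels, and C57BL/6J per the published methods. All values are log2 values after robust multi-array averaging (RMA), so a difference of 1 is a doubling.

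Pyramidal cells are the excitatory output neurons of the hippocampus, arranged as CA3, CA2 and CA1 along the route from the dentate gyrus to the subiculum. CA3 cells receive the mossy fibres of dentate granule cells and project to CA1, the main output field. CA2 is a small field between them that is known for its role in social memory and for resisting synaptic potentiation. The fields are told apart in tissue sections by genes such as those described here. In RNA from whole tissue, fewer cells of a field and less RNA in each cell cannot be told apart, and several of these genes are also transcribed outside their field.

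The arrays were alike (r between any pair from 0.996 to 0.999), and the added gene followed the labels. Dyrk1a stood at 11.65 ± 0.02 (SD, n = 5) in Tg(Dyrk1a) against 11.18 ± 0.06 (SD, n = 5) in wild-type mice, 1.38-fold (limma adjusted p = 0.000138). With the choroid plexus, meninges and thalamus levels as covariates the limma adjusted p was 0.274. These values are those of its brightest transcript cluster. A second, dimmer one was 1.11-fold and did not pass (limma adjusted p = 0.947), though its lowest Tg(Dyrk1a) value (8.88) lay just above its highest wild-type value (8.87). Choroid plexus RNA differed widely between mice within each genotype. Ttr, its transthyretin gene, ranged from 7.97 to 13.24, and the level of 10 choroid plexus genes was high in 3 arrays, wild-type replicate 5 and Tg(Dyrk1a) replicates 2 and 4. All 10 meningeal genes had a higher Tg(Dyrk1a) mean, with a median log2 fold change of 0.25, and 10 of 12 thalamic and habenular genes had a lower one, with a median of -0.12. The latter rested on wild-type replicate 5, whose mean deviation over the 12 genes was 0.45, where the other wild-type mice ran from -0.14 to 0.06 and Tg(Dyrk1a) mice from -0.11 to -0.01.

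None of the 10 genes passed the adjusted threshold of 0.05 in limma, which fits a linear model to each transcript cluster and pools the variance estimates over all of them. The count was 0 of 10, where 0.00854% of 23410 annotated transcript clusters passed, and the adjusted p of the 10 genes ran from 0.947 to 0.996. The 95% intervals of the 10 log2 fold changes together spanned -0.20 to 0.33, from 0.871-fold to 1.26-fold. In 7 genes the Tg(Dyrk1a) mean was higher and in 3 it was lower, and the median log2 fold change was 0.03 against 0.0020 over all genes, of which 51.7% were higher. At an unadjusted limma p under 0.05 there was 1 of the 10, Iyd, where 4.93% of transcript clusters reached that level in either direction and 2.99% in the higher direction. The groups of 5 arrays overlapped in all 10 genes, so that 0 of 10 were separated, against 0.807% of transcript clusters. FCROS, the method of the study, which ranks the fold changes of array pairs and was rewritten here, called 1 of the 10, again Iyd, against 4.83% of transcript clusters. At these shares of all transcript clusters, 1 call in 10 genes is not a result about the group.

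**Figure D1:**
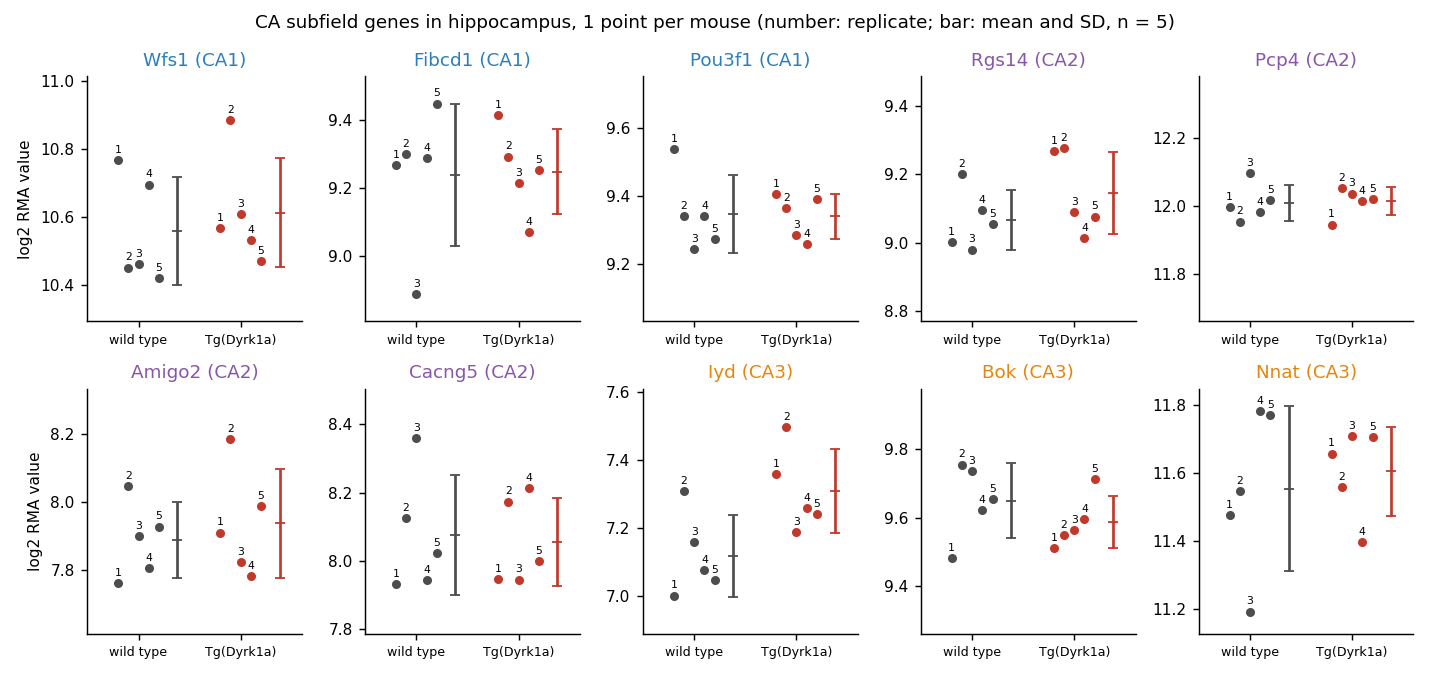
RMA log2 values of the 10 genes in each array, with wild-type mice in grey and Tg(Dyrk1a) mice in red, replicate numbers beside the points, and bars for the mean and SD (n = 5 per group). All panels span the same log2 range, so that the wide spread of Nnat and Fibcd1, the narrow spread of Pcp4 and the higher Iyd values of Tg(Dyrk1a) mice can be compared.

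All 3 CA1 genes varied more between mice of a genotype than most transcript clusters on the array, with an SD above that of 96.7% of them for Wfs1, 97.5% for Fibcd1 and 75.4% for Pou3f1. This was not particular to CA1. The share was 83.5% for Rgs14, 94% for Amigo2, 96.3% for Cacng5, 90% for Iyd, 76% for Bok and 98.3% for Nnat, and only Pcp4 was low at 19.3%. Wfs1 encodes wolframin, a membrane protein of the endoplasmic reticulum with a role in calcium handling. Wfs1 values were 10.77, 10.45, 10.46, 10.70 and 10.42 in wild-type replicates 1 to 5 and 10.57, 10.89, 10.61, 10.53 and 10.47 in Tg(Dyrk1a) replicates 1 to 5. The lowest value was in a wild-type mouse and the highest in Tg(Dyrk1a) replicate 2, with the other arrays mixed. Its log2 fold change was 0.05 ± 0.08 (SE; limma adjusted p = 0.975, exact permutation p = 0.619), with an interval of -0.13 to 0.24. Wfs1 lies on chromosome 5 (36966104 to 36988982, GRCm38.p6).

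Fibcd1, which encodes a transmembrane receptor for acetylated sugars such as chitin, had a mean of 9.24 ± 0.21 in wild-type mice against 9.25 ± 0.13 in Tg(Dyrk1a) mice (SD, n = 5). It read 9.27, 9.30, 8.89, 9.29 and 9.45 in wild-type replicates 1 to 5 and 9.41, 9.29, 9.21, 9.07 and 9.25 in Tg(Dyrk1a) replicates 1 to 5. Wild-type replicate 3 lay below all other arrays, and wild-type replicate 5 above them. Between genotypes the log2 fold change was 0.01 ± 0.09 (SE; limma adjusted p = 0.996), with an interval of -0.19 to 0.21. It lay so close to 0 that its sign turned without wild-type replicate 3 (-0.08) and without Tg(Dyrk1a) replicate 1 (-0.03) or replicate 2 (-0.0010). Fibcd1 lies on chromosome 2 (31813290 to 31846964). The 250 bases before its RefSeq start site, which lies inside these bounds, are shown because Fibcd1 and Nnat, further down, varied together between mice. In all promoter sequences here, capitals mark the GC box GGGCGG and the TATA box TATAAA on either strand.

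Fibcd1 promoter, chr2:31846006-31846255, minus strand, GRCm38.p6: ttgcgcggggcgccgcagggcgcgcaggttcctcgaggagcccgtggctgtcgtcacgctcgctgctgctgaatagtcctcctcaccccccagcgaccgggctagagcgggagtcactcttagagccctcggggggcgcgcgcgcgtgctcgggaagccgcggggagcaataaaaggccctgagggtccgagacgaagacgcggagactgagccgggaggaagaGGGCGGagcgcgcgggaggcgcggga

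This window is 71.6% G and C, with 34 CpG sites and 1 GC box. Over all 32851 RefSeq windows of the same length the median was 52.4% with 6 CpG sites, and 32.7% of windows held a GC box.

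Pou3f1 encodes a POU-domain transcription factor, also known as Oct-6 or SCIP, and lies on chromosome 4 (124657646 to 124660655). Its values were 9.54, 9.34, 9.24, 9.34 and 9.27 in wild-type replicates 1 to 5 and 9.41, 9.36, 9.28, 9.26 and 9.39 in Tg(Dyrk1a) replicates 1 to 5. All Tg(Dyrk1a) arrays lay inside the wild-type range. The log2 fold change was -0.01 ± 0.05 (SE; limma adjusted p = 0.995), with an interval of -0.12 to 0.11. POU factors bind the octamer ATGCAAAT, which was found on either strand in 1.6% of all promoter windows and in 0 of the 9 windows available for 8 of the 10 genes.

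The 4 CA2 genes also did not pass, and their differences were 0.08 or less on the log2 scale. Rgs14 encodes a regulator of G protein signalling that limits potentiation at CA2 synapses. It read 9.00, 9.20, 8.98, 9.10 and 9.05 in wild-type replicates 1 to 5 and 9.27, 9.28, 9.09, 9.01 and 9.08 in Tg(Dyrk1a) replicates 1 to 5. Tg(Dyrk1a) replicates 1 and 2 lay above every wild-type array, and the other 3 lay among them. The log2 fold change of 0.08 ± 0.06 (SE; limma adjusted p = 0.952, exact permutation p = 0.246) had an interval of -0.05 to 0.21. Rgs14 lies on chromosome 13 (55369732 to 55384687).

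Pcp4 encodes a small calmodulin-binding protein and was the steadiest of the 10 genes. Its values were 12.00, 11.95, 12.10, 11.98 and 12.02 in wild-type replicates 1 to 5 and 11.94, 12.05, 12.04, 12.01 and 12.02 in Tg(Dyrk1a) replicates 1 to 5. The 10 arrays spanned 1.11-fold, and the SD within a genotype was larger than that of only 19.3% of transcript clusters. Its log2 fold change was 0.0041 ± 0.03 (SE; limma adjusted p = 0.996), with an interval of -0.07 to 0.08. Pcp4 is the only member on the chromosome of Dyrk1a, chromosome 16 (96467606 to 96525793), and lies outside the Dyrk1a gene (94569947 to 94695519).

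Amigo2 encodes a leucine-rich repeat adhesion protein of the cell surface. It read 7.76, 8.05, 7.90, 7.81 and 7.93 in wild-type replicates 1 to 5 and 7.91, 8.19, 7.82, 7.78 and 7.99 in Tg(Dyrk1a) replicates 1 to 5. The highest array of each genotype was its replicate 2, and the remaining values overlapped throughout. The log2 fold change was 0.05 ± 0.07 (SE; limma adjusted p = 0.973), with an interval of -0.11 to 0.21, and it was -0.01 without Tg(Dyrk1a) replicate 2. Amigo2 lies on chromosome 15 (97244074 to 97247287) and overlaps Pced1b, whose log2 fold change was 0.01 ± 0.04 (SE; limma adjusted p = 0.984). The promoter is shown because Amigo2 varied together with Iyd.

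Amigo2 promoter, chr15:97247288-97247537, minus strand, GRCm38.p6: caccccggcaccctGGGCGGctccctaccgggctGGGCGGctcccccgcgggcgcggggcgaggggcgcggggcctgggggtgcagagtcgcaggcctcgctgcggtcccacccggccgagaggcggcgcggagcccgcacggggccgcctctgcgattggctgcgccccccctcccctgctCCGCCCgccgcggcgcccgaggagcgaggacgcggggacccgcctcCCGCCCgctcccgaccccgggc

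It is 84.0% G and C, with 38 CpG sites and 4 GC boxes, the most G and C of the 9 windows.

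Cacng5 encodes an auxiliary subunit of AMPA-type glutamate receptors and lies on chromosome 11 (107874604 to 107915055). Its values were 7.93, 8.13, 8.36, 7.94 and 8.02 in wild-type replicates 1 to 5 and 7.95, 8.17, 7.94, 8.21 and 8.00 in Tg(Dyrk1a) replicates 1 to 5. Wild-type replicate 3 was the highest array, the mouse in which Fibcd1 was lowest. The genotype difference was -0.02 ± 0.08 (SE, log2; limma adjusted p = 0.986), with an interval of -0.20 to 0.16. Without wild-type replicate 3 it was 0.05.

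Among the CA3 genes, Iyd had the largest difference of the 10 in the comparison of all arrays without covariates, and it did not pass the adjusted threshold. Iyd encodes iodotyrosine deiodinase, the enzyme that recovers iodide from iodinated tyrosines in the thyroid. It read 7.00, 7.31, 7.16, 7.08 and 7.05 in wild-type replicates 1 to 5 and 7.36, 7.50, 7.19, 7.26 and 7.24 in Tg(Dyrk1a) replicates 1 to 5. All 5 Tg(Dyrk1a) arrays lay above the wild-type mean of 7.12, and 2 of them lay above the highest wild-type array. The difference was 0.19 ± 0.07 (SE) on the log2 scale, or 1.14-fold with an interval of 1.03 to 1.26. The unadjusted limma p was 0.0137, the adjusted p was 0.947, and the two-sided exact permutation p was 0.0476, where 0.00794 is the smallest that 5 against 5 arrays can give.

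The Iyd difference kept its sign in all settings, but its size and its SE varied with the setting. Among the planned settings it was 0.18 ± 0.07 (SE) after quantile normalization and 0.19 ± 0.05 (SE) with the replicate number as a block. With weights on arrays it was 0.14 ± 0.06 (SE). It stayed between 0.14 and 0.24 when any 1 array was left out, with unadjusted limma p from 0.00223 to 0.0386. Without the 3 arrays rich in choroid plexus RNA it was 0.13, with an unadjusted limma p of 0.105. With the mean deviation of 8 dentate granule cell genes as a covariate it was 0.04 ± 0.05 (SE), with an unadjusted limma p of 0.437. With the choroid plexus, meninges and thalamus levels as covariates it was 0.18 ± 0.10 (SE), with an unadjusted limma p of 0.0826. The last 3 settings were chosen after seeing the data. All 8 dentate genes had a higher Tg(Dyrk1a) mean, with a median log2 fold change of 0.13, 0 of 8 passed the adjusted threshold, 3 had an unadjusted limma p under 0.05 (2.99% of all transcript clusters in this direction), and FCROS called 5 (4.83% of all in either direction). Their mean deviation from the 10-array means ran from -0.18 to 0.04 in wild-type mice and from -0.04 to 0.23 in Tg(Dyrk1a) mice. The dentate level itself had a mean of 0.07 in Tg(Dyrk1a) and -0.07 in wild-type mice, so the fit with it as covariate also removes genotype difference. The part of dentate RNA in the Iyd difference was not tested. Iyd lies on chromosome 10 (3540274 to 3554880), and its promoter is shown beside that of Nnat, a CA3 gene whose correlation with Iyd over the 10 arrays was -0.247.

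Iyd promoter, chr10:3540024-3540273, plus strand, GRCm38.p6: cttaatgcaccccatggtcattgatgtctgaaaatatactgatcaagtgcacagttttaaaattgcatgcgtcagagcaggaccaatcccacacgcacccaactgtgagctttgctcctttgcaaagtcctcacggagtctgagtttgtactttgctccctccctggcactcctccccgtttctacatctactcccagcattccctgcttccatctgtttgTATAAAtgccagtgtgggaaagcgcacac
Nnat promoter, chr2:157559828-157560077, plus strand, GRCm38.p6: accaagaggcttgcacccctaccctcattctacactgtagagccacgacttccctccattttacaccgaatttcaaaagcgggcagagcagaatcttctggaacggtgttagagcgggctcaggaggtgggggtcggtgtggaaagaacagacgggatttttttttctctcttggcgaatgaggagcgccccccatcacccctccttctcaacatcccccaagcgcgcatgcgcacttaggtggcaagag

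The Iyd window is 48.4% G and C with 5 CpG sites and holds the only TATA box found in the 9 windows. A TATA box was present in 12.4% of all windows. The Nnat window is 54.8% G and C with 12 CpG sites and holds neither motif. Such matches describe letters and not factor binding.

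Of the other CA3 genes, Nnat had a higher and Bok a lower mean in Tg(Dyrk1a) mice, and neither passed. Nnat encodes neuronatin, a small membrane protein that is expressed from the paternal allele, and lies on chromosome 2 (157560078 to 157562525) within the bounds of Blcap. Nnat values were 11.48, 11.55, 11.19, 11.78 and 11.77 in wild-type replicates 1 to 5 and 11.66, 11.56, 11.71, 11.40 and 11.70 in Tg(Dyrk1a) replicates 1 to 5. The wild-type mice held both the lowest value, in replicate 3, and the highest, in replicate 4. The log2 fold change was 0.05 ± 0.10 (SE; limma adjusted p = 0.977), with an interval of -0.17 to 0.27, and -0.04 without wild-type replicate 3. It was 0.19 without the 3 choroid-rich arrays and 0.19 with the dentate covariate, larger than Iyd in both of those fits, and -0.12 with the choroid plexus, meninges and thalamus covariates. Nnat spanned 1.50-fold over the 10 arrays, and its SD within a genotype was larger than that of 98.3% of transcript clusters. Blcap, the gene around it, had a log2 fold change of -0.01 ± 0.04 (SE; limma adjusted p = 0.983).

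Bok encodes a protein of the BCL2 family, which regulates cell death, and lies on chromosome 1 (93685575 to 93695770). It read 9.48, 9.76, 9.74, 9.62 and 9.65 in wild-type replicates 1 to 5 and 9.51, 9.55, 9.56, 9.60 and 9.71 in Tg(Dyrk1a) replicates 1 to 5. All Tg(Dyrk1a) arrays lay inside the wild-type range, whose lowest value was that of wild-type replicate 1. Between genotypes the log2 fold change was -0.06 ± 0.05 (SE; limma adjusted p = 0.952, exact permutation p = 0.310), with an interval of -0.18 to 0.05. Without wild-type replicate 1 it was -0.11, with an unadjusted limma p of 0.0428 and an adjusted p of 1.

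**Figure D2:**
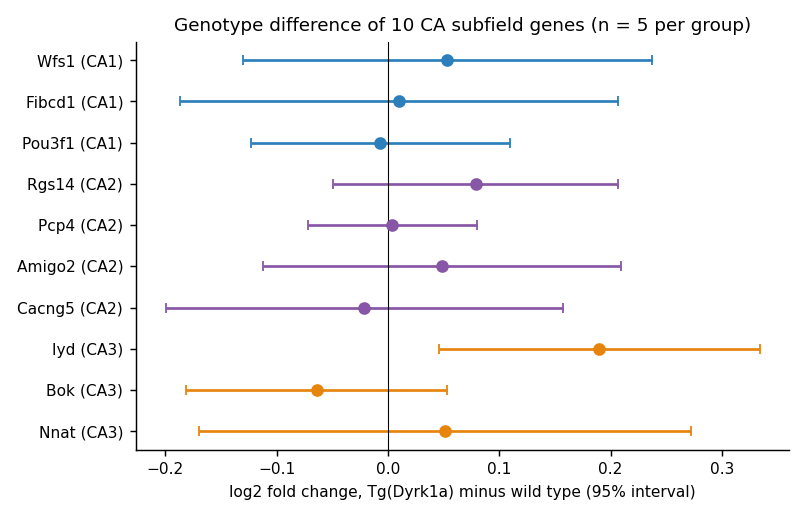
Log2 fold change of each gene, Tg(Dyrk1a) minus wild type, with limma 95% intervals (n = 5 per group), coloured by field. The interval of Iyd lies above 0 before adjustment for the number of transcript clusters, and the other 9 intervals include 0.

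In CA1 and CA2 the mean difference between genotypes was smaller than the SD over mice of either genotype, and in CA3 it was smaller than the SD over wild-type mice and slightly larger than that over Tg(Dyrk1a) mice. The mean difference over members was 0.02 for CA1, 0.03 for CA2 and 0.06 for CA3, with 2 of 3, 3 of 4 and 2 of 3 genes higher in Tg(Dyrk1a). The field level of an array, the mean deviation of its members from their 10-array means, had an SD over wild-type mice of 0.12 for CA1, 0.07 for CA2 and 0.09 for CA3. Over Tg(Dyrk1a) mice the SD was 0.09, 0.08 and 0.05. The CA1 level was 0.13, -0.03, -0.19, 0.05 and -0.01 in wild-type replicates 1 to 5 and 0.07, 0.12, -0.02, -0.10 and -0.02 in Tg(Dyrk1a) replicates 1 to 5. Mice of the same genotype thus covered nearly the whole range of both.

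**Figure D3:**
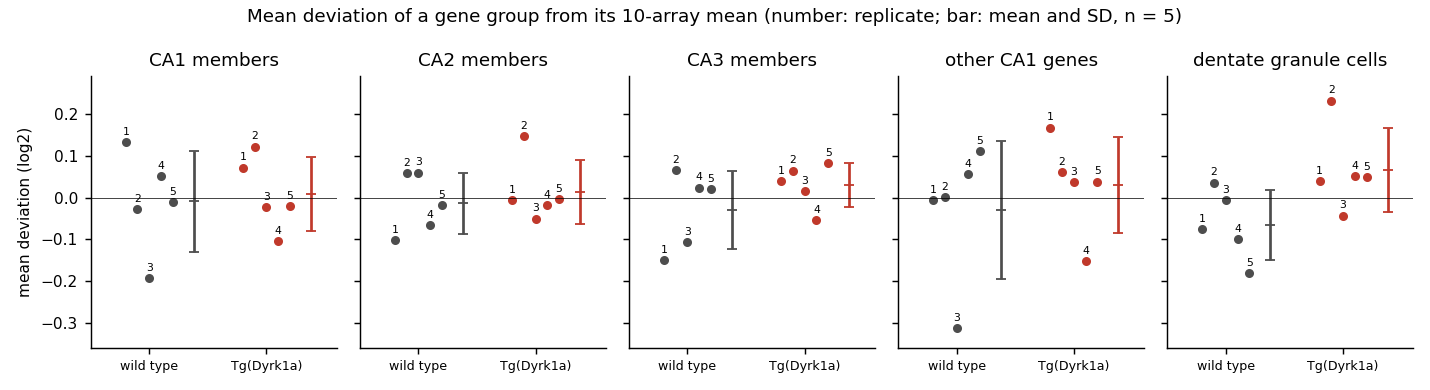
Mean log2 deviation of the CA1, CA2 and CA3 members, of the other CA1 genes and of the dentate granule cell genes from their 10-array means, by array, with replicate numbers and bars for the mean and SD (n = 5 per group). Wild-type replicate 3 is lowest for both CA1 groups and Tg(Dyrk1a) replicate 2 is highest for the CA2 members and the dentate genes.

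No further gene of the 3 fields passed either. Of 5 measured other CA1 genes, all 5 had a higher Tg(Dyrk1a) mean, with a median log2 fold change of 0.07. None passed the adjusted threshold or an unadjusted limma p under 0.05. The higher mean level over these genes rested on wild-type replicate 3, the lowest array for 4 of the 5. Its level was -0.31, where the other wild-type mice ran from -0.01 to 0.11 and Tg(Dyrk1a) mice from -0.15 to 0.17. The smallest p was that of Man1a, a mannosidase of glycan processing, at 0.07 ± 0.05 (SE; limma adjusted p = 0.948). Of 6 other CA2 genes, 2 were higher and 4 lower, with a median of -0.0033, and Stard5, a sterol-binding protein gene, had the smallest p at 0.05 ± 0.04 (SE; limma adjusted p = 0.949). Of 7 other CA3 genes, 4 were higher and 3 lower, with a median of 0.0048, and Csf2rb2, a cytokine receptor subunit gene, had the smallest p at -0.09 ± 0.05 (SE; limma adjusted p = 0.947). Of 8 genes shared by all pyramidal cells, 4 were higher and 4 lower, with a median of 0.01. Neurod2, a transcription factor of excitatory neurons, led these at 0.03 ± 0.04 (SE; limma adjusted p = 0.969). In the CA2, CA3 and shared groups, too, 0 genes passed at the adjusted or the unadjusted level, and FCROS called 0 in all 4 groups.

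Most of the variation in these genes lay between mice of a genotype, and 3 arrays held most of the extreme values. Wild-type replicate 3 was the lowest of the 10 arrays for Fibcd1, Pou3f1, Rgs14 and Nnat, and for 4 of the 5 other CA1 genes. Its level of the other CA1 genes was -0.31, where the remaining wild-type mice ran from -0.01 to 0.11. The same array was the highest for Cacng5 and Pcp4. Wild-type replicate 1 was the lowest array for Amigo2, Cacng5, Iyd and Bok. Tg(Dyrk1a) replicate 2 was the highest array for Wfs1, Rgs14, Amigo2 and Iyd, for 7 of 8 dentate genes and for 7 of 10 choroid plexus genes.

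After the genotype means were removed, Fibcd1 followed the other CA1 genes closely across the 10 arrays. The correlation of Fibcd1 with their mean deviation was r = 0.981 (Spearman's rho = 0.988). It was 0.930 without the 2 arrays whose Fibcd1 deviation lay farthest from its median. For each correlation of a gene with a list, the 2 farthest arrays were set by that gene's own deviations, so they can differ between genes. Wfs1, also a CA1 gene, had r = 0.201 with the level of the other CA1 genes. Nnat, listed for CA3, had r = 0.881, and 0.510 without the 2 farthest arrays. These correlations and those that follow are descriptions over 10 arrays that share 1 preprocessing, with no p.

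Iyd followed the dentate granule cell genes, with r = 0.859 and 0.566 without the 2 farthest arrays. Cacng5 ran opposite to 8 interneuron genes, with r = -0.889, and -0.887 without the 2 farthest arrays. Pcp4 ran with 7 oligodendrocyte genes at r = 0.868, and 0.738 without the 2 farthest. Rgs14 ran with 5 microglial genes at r = 0.855, and 0.709 without the 2 farthest. Each of these was the strongest of the gene's correlations with 13 gene lists over all 10 arrays, and microglial genes were also the strongest list for Amigo2 (r = 0.810). The order changed without the 2 farthest arrays for Iyd, whose strongest list was then that of the subiculum and neocortex (-0.919), and for Rgs14, where the other CA1 genes and the interneuron genes each reached 0.735.

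**Figure D4:**
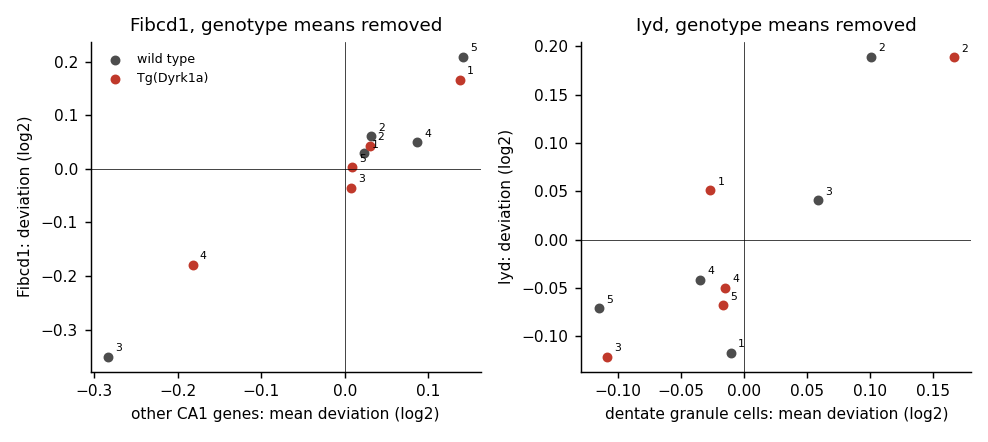
Deviations of Fibcd1 (left) and Iyd (right) from their genotype means against the mean deviation of the other CA1 genes and of the dentate granule cell genes, all log2, with 1 point for each array and its replicate number. Fibcd1 follows the CA1 genes over the whole range (r = 0.981), while for Iyd the upper end is set by replicate 2 of each genotype (r = 0.859).

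Members of the same field varied together little more than members of different fields. Over 12 same-field pairs the median r was 0.214, from -0.497 to 0.672, and 8 were positive. Over 33 pairs of different fields it was 0.0394, from -0.806 to 0.824, and 19 were positive. The highest values joined fields: Fibcd1 with Nnat at 0.824, Amigo2 with Iyd at 0.820 and Rgs14 with Iyd at 0.764. The lowest was that of Cacng5 with Nnat at -0.806. Leaving out the 2 arrays farthest from the median of the gene named earlier in each pair brought these to 0.306, 0.385, 0.432 and -0.374. Dropping the most extreme arrays of a gene narrows its range, which by itself tends to weaken r. The fall therefore cannot show how far each value rested on those arrays. Spearman's rho over all arrays was 0.576, 0.588, 0.564 and -0.576. Within wild-type mice r was 0.893, 0.857, 0.689 and -0.778, and within Tg(Dyrk1a) mice 0.617, 0.813, 0.833 and -0.906. The pairs share genes and are not independent.

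**Figure D5:**
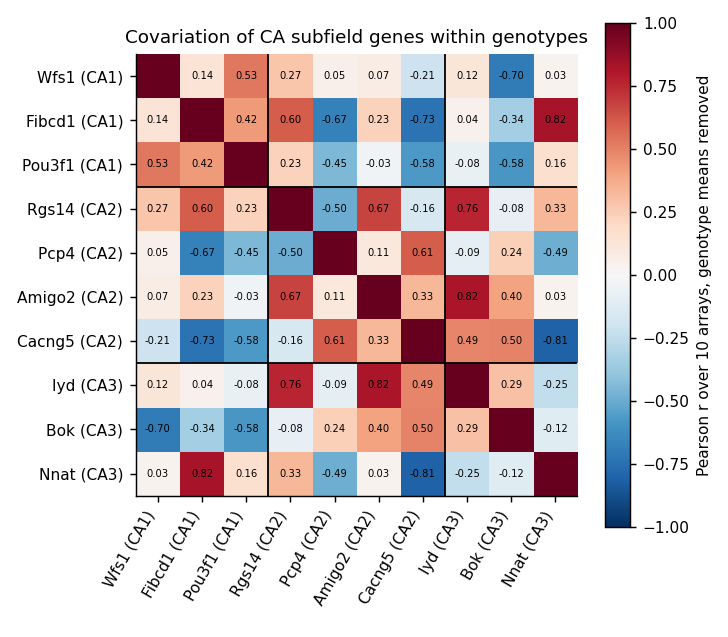
Pearson r between each pair of the 10 genes over 10 arrays after removal of the genotype means, from blue (-1) to red (1), with black lines between the CA1, CA2 and CA3 genes. The strongest positive and negative values (0.82 for Fibcd1 with Nnat, -0.81 for Cacng5 with Nnat) lie outside the same-field blocks.

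Among 10826 genes with a mean over 7, the patterns most like each field level, again after removal of the genotype means and over 10 arrays, were as follows. For CA1 they were Trim41 (r = 0.968), Bhlhe40 (0.955) and Psmd3 (0.951), and 28 genes had r over 0.9. For CA2 they were H2bc4 (0.961), Anp32b (0.955) and Mipep (0.955), and 16 genes had r over 0.9. For CA3 they were Arhgef26 (0.979), Rbm34 (0.955) and Npy2r (0.948), and 25 genes had r over 0.9. Trim41 encodes a ubiquitin ligase, Bhlhe40 a transcription factor, Psmd3 a proteasome subunit and Npy2r a receptor for neuropeptide Y. None of these 9 genes was a listed marker of the field, and none passed the adjusted threshold (limma adjusted p from 0.947 to 0.987). They are the highest of 10826 values over 10 arrays, and so wide a search returns some high r by selection alone. No chance level is given here, so they are not shown to be related to a field.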

How the data were processed

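Hippocampal RNA of 10 male mice was hybridised to Affymetrix mouse gene arrays, 1 array per mouse, and labels gave genotype and replicate number. The authors deposited log2 values after RMA (background correction, normalization and probe summary). The submitters' processing notes name RMA, limma and mm10. The sources used here do not say which arrays were normalized as a set. RMA compresses fold changes, above all of dim transcript clusters. The number of arrays limits the precision.

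Of 35556 rows, 23410 had a platform gene symbol (21789 with 1, 1621 with several), and 12146 without one were left out. Positions and promoters came from RefSeq (GRCm38.p6), with 9 promoter windows for 8 of the 10 genes. The genotype comparison used limma 3.58.1 (R 4.3.3; lmFit, eBayes, no covariate, Benjamini-Hochberg over 23410 transcript clusters) and, for single genes, a two-sided exact permutation test over 252 assignments. The limma p sets the difference of group means against the spread between these mice, pooled in part over all transcript clusters. The permutation p ranks that difference among the 252 assignments. FCROS was rewritten from its description (all pairs of arrays, 25% of ranks trimmed at each end, outer 0.025 called on either side). A gene list's level is the mean over its genes of the value minus its 10-array mean.

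The 10 genes and all lists were chosen with earlier results of these data known. Of 105 listed genes beside the 10, 99 were measured. Named genes are the 10, Dyrk1a, the gene with the smallest p of each other CA and pyramidal list, and the 3 genes most like each field's level with a mean over 7. Ttr, Pced1b and Blcap were added afterwards. The comparison was repeated after median centring or quantile normalization, without the dimmest 30% of transcript clusters, on all rows, with a variance trend, with weights on arrays, with replicate number blocked, on the mean of a gene's transcript clusters, with FCROS, and without each array in turn. Fits without the 3 arrays whose choroid plexus level exceeded 0.5, and fits with cell type levels as covariates, were chosen after seeing the data. Scripts were tested on simulated data.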

Additional observations from a re-analysis of the deposited data

Results flagged for a closer look

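The level of the CA2 members was 0.148 in Tg(Dyrk1a) replicate 2, far from the other 4 Tg(Dyrk1a) mice, which ran from -0.05 to -0.00 (-0.0037). Its gap to the nearest of them was 0.763 of the range of the group, past the limit of 0.71 for 5 arrays. Rgs14 (9.28) and Amigo2 (8.19) were at their highest of the 10 arrays in this mouse, while Cacng5 (8.17) and Pcp4 (12.05) were not. The same array was rich in choroid plexus RNA and highest for 7 of 8 dentate granule cell genes, and the part of these in the CA2 level was not tested. In all, 28 groups of 5 arrays were examined and 1 stood apart, where chance gives about 1 in 20.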

How the results depend on the processing

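The count of members past the adjusted threshold stayed at 0 under every limma setting, and was 1 (Iyd) by FCROS. The other CA and pyramidal genes stayed at 0 throughout, FCROS included, with Avpr1b left out by the filter on dim transcript clusters. Dyrk1a ran from 0.46 to 0.49 when 1 array was left out and was 0.31 with the mean of its transcript clusters. With the choroid plexus, meninges and thalamus levels as covariates it was 0.45 and no longer passed (limma adjusted p = 0.274). In the other limma settings its adjusted p ran from 4.02e-06 to 0.0179, the latter with the replicate number as a block.

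Leaving out 1 array gave field differences of -0.03 to 0.05 for CA1, -0.01 to 0.05 for CA2 and 0.03 to 0.08 for CA3. The log2 fold changes then ran from -0.0144 to 0.105 for Wfs1, -0.0778 to 0.0623 for Fibcd1, -0.0328 to 0.0410 for Pou3f1, 0.0459 to 0.112 for Rgs14, -0.00965 to 0.0258 for Pcp4, -0.0131 to 0.0885 for Amigo2, -0.0611 to 0.0495 for Cacng5, 0.143 to 0.237 for Iyd, -0.106 to -0.0375 for Bok and -0.0390 to 0.108 for Nnat. Rgs14, Iyd and Bok kept their sign in all settings, and the others changed sign in at least 1.

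Quantile normalization turned Fibcd1 to -0.00662 and Pcp4 to -0.00185, median centring turned Pcp4 to -0.000446, and array weights turned Fibcd1 to -0.0163. Apart from these and from leaving out 1 array, the settings that turned a sign were chosen after seeing the data. With the 3 covariates Wfs1 was -0.151, Fibcd1 -0.0249, Nnat -0.120 and Cacng5 0.0734. With the dentate level as a covariate Wfs1 was -0.0279, Pcp4 -0.00624 and Amigo2 -0.0888. Without the 3 choroid-rich arrays Wfs1 was -0.0448 and Pcp4 -0.00697. The causes were not tested. With the replicate number as a block, Iyd kept 0.19 (limma adjusted p = 0.946) and the count stayed at 0. The labels do not say whether equal numbers pair mice. Over all transcript clusters, correlations of same-number deviations ran from -0.285 to 0.276, 1 of 5 was over 0.1, and 2 of 10 arrays were closest to their own number. Such values cannot exclude a pairing that shows in some genes only. With the block the SE fell from 0.0741 to 0.0431 for Amigo2 and from 0.0663 to 0.047 for Iyd. It rose from 0.0348 to 0.0364 for Pcp4 and from 0.102 to 0.106 for Nnat.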
